A study of Rattus norvegicus with 20 samples.

Results

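The microRNAs (miRNAs, short RNAs that repress the messages they pair with) of the miR-143 and miR-145 cluster were followed in spermatocytes and spermatids of rats dosed with cyclophosphamide or with saline. The members were chosen by name on the array: rno-miR-143-3p, rno-miR-143-5p and rno-miR-145-5p, 3 of the 677 rat miRNAs that the array carries. All 3 were among the 217 miRNAs detected on every array of at least 1 group, which are the tested miRNAs below. The opposite arm rno-miR-145-3p is also on the array and is described for comparison.

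Sprague-Dawley males had received cyclophosphamide, an alkylating anticancer drug, by gavage at 6 mg/kg on 6 days a week for 4 weeks, or saline in its place. Pachytene spermatocytes, which are in meiotic prophase, and round spermatids, the haploid cells that follow meiosis, were separated by sedimentation at unit gravity. This gave 4 groups of 5 arrays each: saline pachytene (rats 13, 16, 25, 26 and 28), cyclophosphamide pachytene (rats 7, 15, 16 earlier, 16 later and 29), saline spermatid (rats 15, 16, 17, 25 and 28) and cyclophosphamide spermatid (rats 14, 15, 16, 25 and 26). The numbers are those of the array labels, taken as rats. The number 16 recurs among the cyclophosphamide pachytene arrays, from different years. No strain difference, transgene or other treatment separates the groups, and purity figures for the cell fractions were not used here. Where numbers do not mark separate animals, the p-values measure only the spread between the arrays.

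MiR-143 and miR-145 are processed from a common primary transcript and are known as characteristic miRNAs of smooth muscle, where serum response factor and myocardin drive them and where they favour the contractile state. In the testis, smooth-muscle-like peritubular myoid cells surround the seminiferous tubules, and the walls of blood vessels hold further smooth muscle. Each hairpin yields 2 arms, of which usually 1 is loaded into Argonaute and the other is mostly degraded.

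The mature sequences are shown because the arms differ in seed, the bases at positions 2 to 8 that pair with targets and are in capitals here. They are RefSeq entries of the GRCr8 build, in which all 3 members were matched by name.
rno-miR-143-3p: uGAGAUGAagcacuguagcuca
rno-miR-143-5p: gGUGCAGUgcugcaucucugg
rno-miR-145-5p: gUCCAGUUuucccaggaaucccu
rno-miR-145-3p: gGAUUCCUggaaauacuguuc
The 4 seeds differ from each other, and no other miRNA on the array shares any of them. The cluster therefore falls into no seed family of its own, and what its members have in common is the locus.

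The hairpins show where the arms lie, with the mature arms in capitals.
Mir143: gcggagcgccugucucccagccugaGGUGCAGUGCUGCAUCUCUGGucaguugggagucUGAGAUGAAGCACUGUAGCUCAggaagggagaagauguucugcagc
Mir145: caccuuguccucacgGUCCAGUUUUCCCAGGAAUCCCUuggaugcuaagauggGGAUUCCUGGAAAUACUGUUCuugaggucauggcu
Mir143 spans chr18:57371349-57371453 and Mir145 chr18:57369983-57370070 in GRCr8, both on the minus strand, with 1278 bases between them. Both lie within Carmn, a long non-coding RNA gene that RefSeq also lists as Mir143hg, the miR-143 host gene. These coordinates belong to the RefSeq build and not to the array design.

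The deposited values are spot intensities. Each array was scaled to its 75th percentile over the 2176 spots well above background on all arrays, and values below a floor of 12.2 (3.61 on the log2 scale) were set to it. A level below is the log2 of this scaled signal for the brighter of the 2 probes of a miRNA. Each probe was printed in 10 spots, and no spot was saturated. Between 181 and 281 miRNAs were detected per array. The precision of a value is set by how many arrays stand behind it. The arrays lay on 3 slides: slide 1 and slide 2 each held arrays of all 4 groups, and slide 3 held spermatid arrays only, 3 saline and 1 cyclophosphamide. Slides were told apart by the array number that opens each description label. A level of a probe is a brightness, so levels of different miRNAs are not their relative numbers of molecules.

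MiR-143-3p, the guide arm of miR-143, was the brightest member on every array. In saline pachytene spermatocytes its level was 9.52, 8.96, 10.06, 9.31 and 9.65 in rats 13, 16, 25, 26 and 28. In cyclophosphamide pachytene spermatocytes it was 9.52, 9.47, 9.41, 8.52 and 9.07 in rats 7, 15, 16 earlier, 16 later and 29. The treated arrays thus overlapped the saline ones, with the later rat 16 the lowest. In saline round spermatids the level of miR-143-3p was 10.96, 11.31, 11.33, 11.53 and 11.43 in rats 15, 16, 17, 25 and 28. In cyclophosphamide round spermatids it was 11.54, 10.74, 11.69, 11.33 and 10.71 in rats 14, 15, 16, 25 and 26. Every spermatid array lay above every pachytene array, and within spermatids the treated arrays reached both higher and lower than the saline ones. Whether such separation of the cell types is common among the tested miRNAs was not counted. The pachytene means were 9.50 ± 0.41 and 9.20 ± 0.42 and the spermatid means 11.31 ± 0.22 and 11.20 ± 0.45, saline before cyclophosphamide (SD, n = 5).

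MiR-145-5p, the guide arm of miR-145, followed the same order of groups at a lower brightness. In saline pachytene spermatocytes its level was 5.91, 5.27, 6.59, 6.04 and 6.56 in rats 13, 16, 25, 26 and 28. In cyclophosphamide pachytene spermatocytes it was 6.13, 5.96, 6.23, 5.27 and 5.91 in rats 7, 15, 16 earlier, 16 later and 29. As for miR-143-3p, saline rat 16 and the later cyclophosphamide rat 16 were the lowest of their groups. In saline round spermatids the level of miR-145-5p was 7.03, 8.73, 7.80, 8.26 and 7.88 in rats 15, 16, 17, 25 and 28. In cyclophosphamide round spermatids it was 7.99, 6.82, 8.001, 8.29 and 7.18 in rats 14, 15, 16, 25 and 26. Saline rat 16 was the highest spermatid array and cyclophosphamide rat 15 the lowest, and the spermatid and pachytene arrays again did not overlap. The pachytene means were 6.07 ± 0.54 and 5.90 ± 0.38 and the spermatid means 7.94 ± 0.63 and 7.65 ± 0.63, saline before cyclophosphamide (SD, n = 5).

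MiR-143-5p, the passenger arm of miR-143, was near the limit of detection. With the floor set, its dimmer probe did not vary over the spermatid arrays. The levels, arm ratios and correlations of this arm therefore rest on its brighter probe. The scaled signal of miR-143-5p in round spermatids was 12.4, 17.0, 17.3, 20.8 and 19.1 in saline rats 15, 16, 17, 25 and 28. It was 18.8, 10.4, 23.5, 21.5 and 10.7 in cyclophosphamide rats 14, 15, 16, 25 and 26, where rats 15 and 26 lay below the floor. Feature Extraction, the scanner software, detected it on all 10 spermatid arrays, but on 3 of them a single spot of 10 was well above background. In pachytene spermatocytes the scaled signal of miR-143-5p was 4.49, 3.35, 7.39, 5.45 and 6.85 in saline rats 13, 16, 25, 26 and 28. It was 4.73, 4.04, 4.58, 1.23 and 3.46 in cyclophosphamide rats 7, 15, 16 earlier, 16 later and 29. All 10 pachytene arrays lay below the floor, and the arm was detected on 2 of 5 saline and 0 of 5 cyclophosphamide pachytene arrays. MiR-145-3p, the passenger arm of miR-145, was detected on 0 of 20 arrays, with a scaled signal between -3.53 and 0.883.

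**Figure D1:**
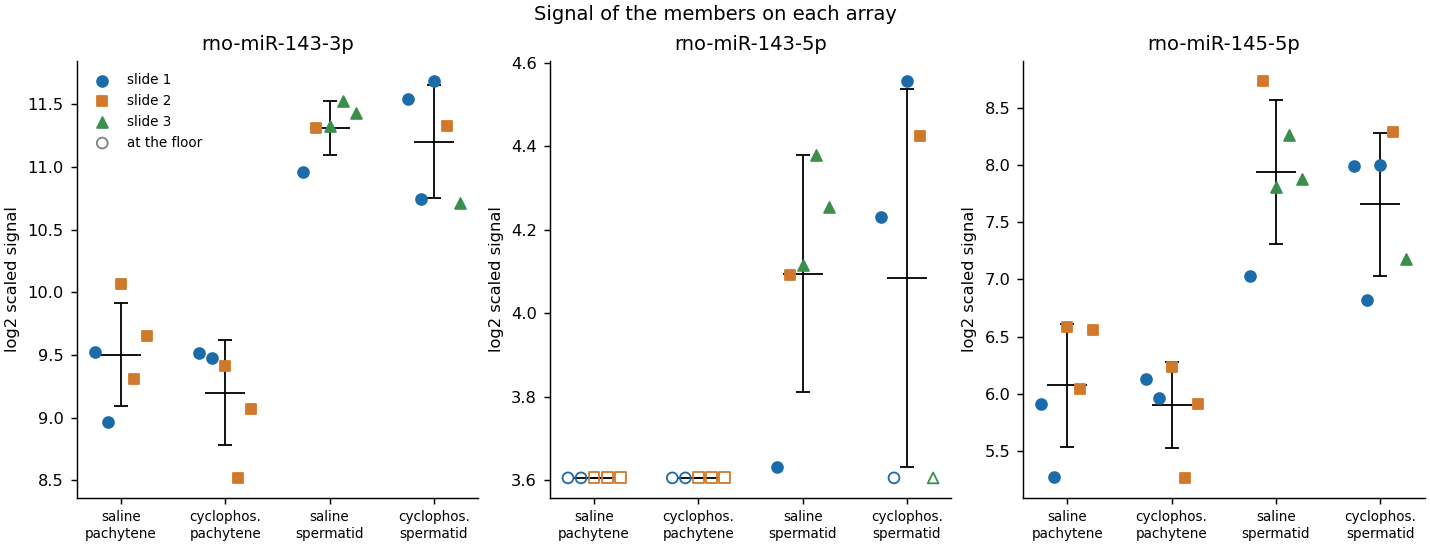
Level (log2 scaled signal) of rno-miR-143-3p, rno-miR-143-5p and rno-miR-145-5p on each of the 20 arrays by group, coloured and shaped by slide, with open symbols at the floor and a bar for the mean ± SD of the 5 arrays. For miR-143-3p and miR-145-5p every spermatid array lies above every pachytene array, while all 10 pachytene arrays of miR-143-5p lie at the floor. How common such separation is among the tested miRNAs was not counted.

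The comparison of the cell types asks how the cluster differed between meiotic and haploid fractions. In saline rats miR-143-3p was 3.51-fold higher in round spermatids than in pachytene spermatocytes (95% interval 2.51 to 4.91), a log2 difference of 1.81 ± 0.23 (SE; adjusted p = 2.06e-06, limma). In cyclophosphamide rats it was 4.01-fold higher, a log2 difference of 2.004 ± 0.23 (adjusted p = 4.99e-07, limma). These differences were the 6th and the second largest increases of the 215 miRNAs that varied among arrays, and the closest arrays of the cell types were 0.90 and 1.19 log2 units apart. MiR-145-5p was 3.65-fold higher in spermatids of saline rats, a log2 difference of 1.87 ± 0.33 (interval 1.18 to 2.56; adjusted p = 7.88e-05, limma). In cyclophosphamide rats it was 3.37-fold higher, a log2 difference of 1.75 ± 0.33 (interval 1.07 to 2.44; adjusted p = 0.000153, limma). Its increases ranked 4th and 7th, and the closest arrays of the cell types were 0.44 and 0.58 log2 units apart. How many of the other tested miRNAs separated the cell types without overlap was not counted.

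Both guide arms therefore passed the test in both treatments. Over all tested miRNAs, 26% were called higher and 21.9% lower in spermatids of saline rats, and 30.2% higher and 23.3% lower in those of cyclophosphamide rats. A call upward was thus common, and the guide arms stood out from the other called miRNAs by their rank in size rather than by being called. The median difference of all tested miRNAs was 0.022 in saline and 0.067 in cyclophosphamide rats. That split moved with the scaling: with no scaling 21 miRNAs were called higher and 67 lower in saline rats, against 56 and 47 with the scaling used here, and 22 against 51 in cyclophosphamide rats, against 65 and 50. With the 75th percentile taken over all spots it was 37 against 78 and 38 against 73, and with quantile normalization 39 against 61 and 47 against 61. In saline rats the median of all tested miRNAs then moved to -0.37 with no scaling and to 0.44 with normexp, another background correction. Relative to that median, miR-143-3p stayed 1.71 higher with no scaling and 1.11 higher with normexp, and miR-145-5p 1.76 and 0.88.

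For miR-143-5p the difference can be given only as a bound or through the floor. In cyclophosphamide rats, where it was detected on no pachytene array, its spermatid mean was at least 1.60-fold higher than the lowest signals well above background on the pachytene arrays. In saline rats the corresponding bound was at least 1.73-fold, with 2 pachytene arrays on which the arm was detected. The fitted log2 differences were 0.49 ± 0.16 (adjusted p = 0.0179, limma) and 0.48 ± 0.16 (adjusted p = 0.0190, limma), saline before cyclophosphamide, and depend on the floor. They became 1.40 and 1.40 with a floor of 6.09. The arm was among the tested miRNAs only through its detection on every spermatid array. These p-values are therefore not independent support for a higher spermatid level. All 10 pachytene values are the floor itself, so no pachytene spread stands behind the SE. The calls were lost when saline spermatid rat 25 was left out (0.42, adjusted p = 0.0522) and when cyclophosphamide spermatid rat 16 (0.36, adjusted p = 0.0617) or rat 25 (0.39, adjusted p = 0.0584) was left out.

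Slide and cell type were partly tied together, since slide 3 held no pachytene array. Within slide 1 the spermatid minus pachytene difference of miR-143-3p was 1.72 ± 0.40 in saline and 1.83 ± 0.30 in cyclophosphamide rats, and within slide 2 it was 1.64 ± 0.40 and 2.33 ± 0.40. Each of these passed the test. For miR-145-5p it was 1.44 ± 0.51 and 1.56 ± 0.38 within slide 1 and 2.34 ± 0.40 and 2.48 ± 0.40 within slide 2, and the saline value within slide 1 did not pass (adjusted p = 0.0837, limma). A single spermatid array stood for saline on slide 1 and for each treatment on slide 2, and its spread was assumed to be that of the other groups. With slide as a block the differences were 1.85 ± 0.29 and 2.02 ± 0.25 for miR-143-3p and 2.06 ± 0.37 and 1.96 ± 0.32 for miR-145-5p. Among spermatid arrays, slide 3 differed from slides 1 and 2 by -0.07 ± 0.24 for miR-143-3p, -0.0058 ± 0.25 for miR-143-5p and -0.18 ± 0.40 for miR-145-5p. None of these passed, where 9.22% of the 206 miRNAs compared did.

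The cyclophosphamide comparison asks whether the drug altered the cluster within a cell type, and no member passed the test in either. In pachytene spermatocytes miR-143-3p differed by -0.30 ± 0.23 (interval -0.79 to 0.18) and miR-145-5p by -0.17 ± 0.33 (interval -0.86 to 0.52; adjusted p = 1 for each, limma). In round spermatids the differences were -0.11 ± 0.23 for miR-143-3p (interval -0.59 to 0.37; adjusted p = 0.930), -0.010 ± 0.16 for miR-143-5p (interval -0.35 to 0.33; adjusted p = 1) and -0.29 ± 0.33 for miR-145-5p (interval -0.97 to 0.40; adjusted p = 0.867). These intervals leave room for a change of either sign, and for miR-145-5p for a fall to 0.509 of the saline level or a rise to 1.32 times it. The difference between the drug effects of the cell types was 0.19 ± 0.33 for miR-143-3p and -0.11 ± 0.46 for miR-145-5p (adjusted p = 0.993 for each, limma). Over all 215 miRNAs 0% were called in each of the 3 comparisons, while 1, 4 and 1 miRNAs had an unadjusted p under 0.05, in the order pachytene, spermatid and difference between them. With array weights 0 were called in each as well, with 30, 25 and 4 at an unadjusted p under 0.05.

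The drug difference in round spermatids changed sign with the slide. Within slide 1, where 3 cyclophosphamide arrays faced 1 saline array, it was 0.36 for miR-143-3p, 0.50 for miR-143-5p and 0.58 for miR-145-5p. Within slide 2, with 1 array of each, it was 0.015 for miR-143-3p and -0.45 for miR-145-5p. Within slide 3, where 1 cyclophosphamide array faced 3 saline arrays, it was -0.72, -0.64 and -0.80, and none of these passed after adjustment (adjusted p = 0.394 for each, limma). The lone array on slide 1 was saline rat 15 and that on slide 3 cyclophosphamide rat 26, which were the lowest or next to lowest of their groups for all 3 members. In pachytene spermatocytes the difference was 0.25 within slide 1 and -0.68 within slide 2 for miR-143-3p, and 0.45 and -0.59 for miR-145-5p. No drug effect of 1 direction was seen across slides for either guide arm.

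**Figure D2:**
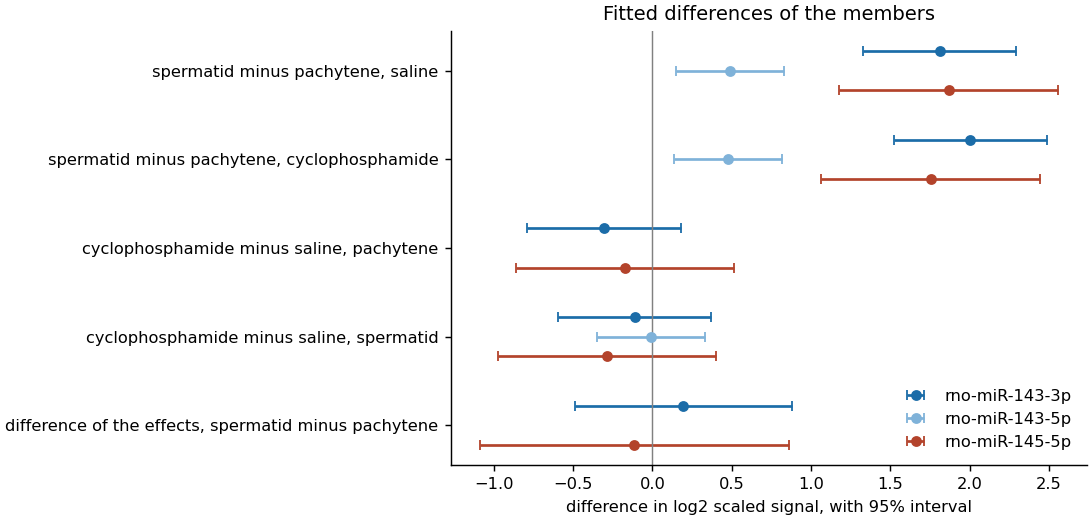
Fitted log2 differences of rno-miR-143-3p, rno-miR-143-5p and rno-miR-145-5p in the 5 comparisons, as points with their 95% intervals, on an axis in log2 units with a line at 0. The spermatid minus pachytene intervals lie above 0 in both treatments, and the intervals of the cyclophosphamide comparisons include 0. Those of miR-143-5p between cell types depend on the floor.

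The spread of the levels was taken over all arrays of a cell type, with treatments and slides pooled. Over the 10 spermatid arrays the SD of the log2 level was 0.61 for miR-145-5p, the 10th largest of the 217 tested miRNAs, against a median of 0.25. It was 0.34 for miR-143-3p and 0.36 for miR-143-5p, which ranked 60th and 54th. Over the 10 pachytene arrays the SD of miR-145-5p was 0.45 and that of miR-143-3p 0.42, the 7th and 8th largest, against a median of 0.17. From the lowest to the highest spermatid array the scaled signal of miR-145-5p spanned 3.78-fold and that of miR-143-3p 1.97-fold. Within an array, the spots of a probe had a median coefficient of variation of 4.50% for miR-143-3p and 5.29% for miR-145-5p over the spermatid arrays.

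In round spermatids the 3p level exceeded the 5p level by 7.17 ± 0.12 log2 units (SD, n = 10), and the ratio of scaled signals ran from 119.9 to 160.7. By array it was 160.7, 149.5, 148.0, 142.1 and 144.9 in saline rats 15, 16, 17, 25 and 28. In cyclophosphamide rats 14, 15, 16, 25 and 26 it was 158.7, 140.6, 140.1, 119.9 and 137.6. The last value and that of rat 15 have the 5p arm at the floor, and without the floor they were 157.3 and 164.0. The lowest ratio was that of cyclophosphamide rat 25, and the groups overlapped. The group means of the log2 arm difference were 7.22 ± 0.07 in saline and 7.12 ± 0.14 in cyclophosphamide spermatids (SD, n = 5), which differed by -0.10 ± 0.083 (SE; interval -0.29 to 0.08; adjusted p = 0.610, limma). Without the floor the means were 7.22 ± 0.07 and 7.20 ± 0.19.

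Across the 17 precursors with both arms measured in spermatids, the SD of the log2 arm difference had a median of 0.17. For miR-143 it was 0.12 with the floor and 0.13 without it. For none of the 17 (0%) did the arm difference pass the test between treatments, and 0 had an unadjusted p under 0.05. The precursors whose treatment difference was nearest to that of miR-143 were miR-30e at -0.10 ± 0.11, miR-199a at -0.13 ± 0.095 and miR-34b at -0.15 ± 0.20. Because the arms are read by different probes, 7.17 log2 units is a ratio of brightness and not of molecules. In pachytene spermatocytes the 5p arm lay below the floor on every array, so the arm difference there is not a measured ratio.

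The guide arms of the 2 hairpins were high and low on largely the same arrays of a slide. Over the 10 spermatid arrays miR-143-3p and miR-145-5p had a Pearson r of 0.776 (permutation p = 0.00998; adjusted p = 0.0912) and a Spearman rho of 0.552 (permutation p = 0.104; adjusted p = 0.332). This did not pass, and without the 2 arrays farthest from the median of miR-143-3p the r was 0.521. Leaving those arrays out also narrows the range of miR-143-3p, so that check cannot show whether the relation rests on them. The r with 1 array left out at a time was 0.680 to 0.884. The points fell apart by slide. The level of miR-143-3p exceeded that of miR-145-5p by 3.66 ± 0.19 on slide 1 (SD, n = 8), by 3.13 ± 0.26 on slide 2 (n = 8) and by 3.47 ± 0.14 on slide 3 (n = 4). With the mean of each slide removed, the r over the spermatid arrays was 0.950 (adjusted p = 0.00699, permutation). Over the 10 pachytene arrays it was 0.893, and 0.957 with the slide means removed. The permutations moved the remaining values freely across slides and made no allowance for the means removed. P-values with the slide means removed are therefore too low, and counts of calls may be too high. Which of the slides gives the truer ratio was not tested.

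**Figure D3:**
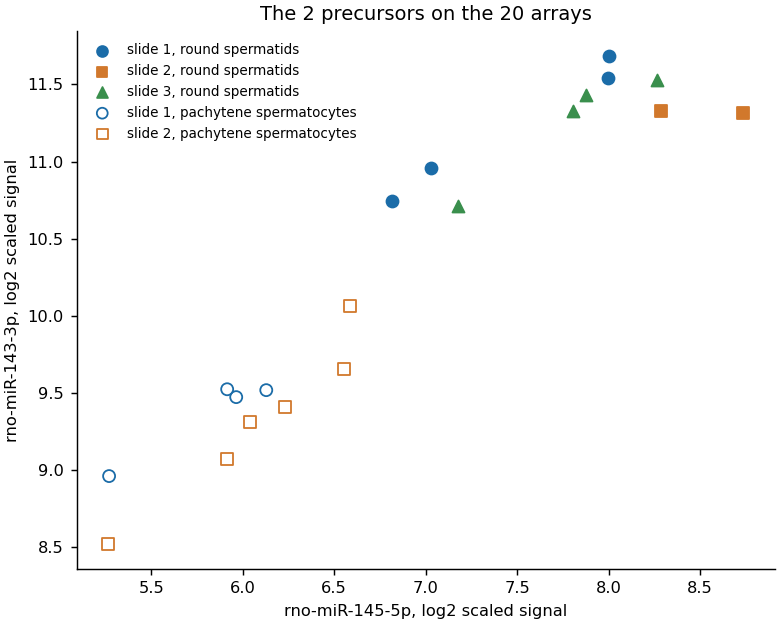
Level (log2 scaled signal) of rno-miR-143-3p against that of rno-miR-145-5p on each of the 20 arrays, filled for round spermatids and open for pachytene spermatocytes, coloured by slide. Within a slide the points lie along a line, and on slide 2 miR-143-3p is lower relative to miR-145-5p than on slide 1.

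The slides also differed in the ratio of the 2 probes of miR-143-3p, where slide 3 lay near slide 2 rather than near slide 1. The log2 ratio of its brighter to its dimmer probe was 1.56 ± 0.045 on slide 1 (SD, n = 8; 1.47 to 1.61), 1.12 ± 0.11 on slide 2 (n = 8; 0.98 to 1.33) and 1.21 ± 0.05 on slide 3 (n = 4; 1.15 to 1.26). Slide 1 did not overlap the other slides, as for 19 of the 114 miRNAs with a pair of probes that could be compared, and its shift was the 4th largest of the 114. Both probes are meant to read the same miRNA, so the shift lies between probes of the same miRNA. The log2 ratio of the probes of miR-145-5p ran from 0.58 to 0.90, overlapped between slides and ranked 93rd by its shift. With the dimmer probe in place of the brighter one, the spermatid minus pachytene differences were 1.86 and 1.90 for miR-143-3p and 1.90 and 1.78 for miR-145-5p, saline before cyclophosphamide. The r of miR-143-3p with miR-145-5p over spermatid arrays was then 0.919 (adjusted p = 0.0114, permutation). The direction of every cell type difference of the guide arms thus held with either probe.

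**Figure D4:**
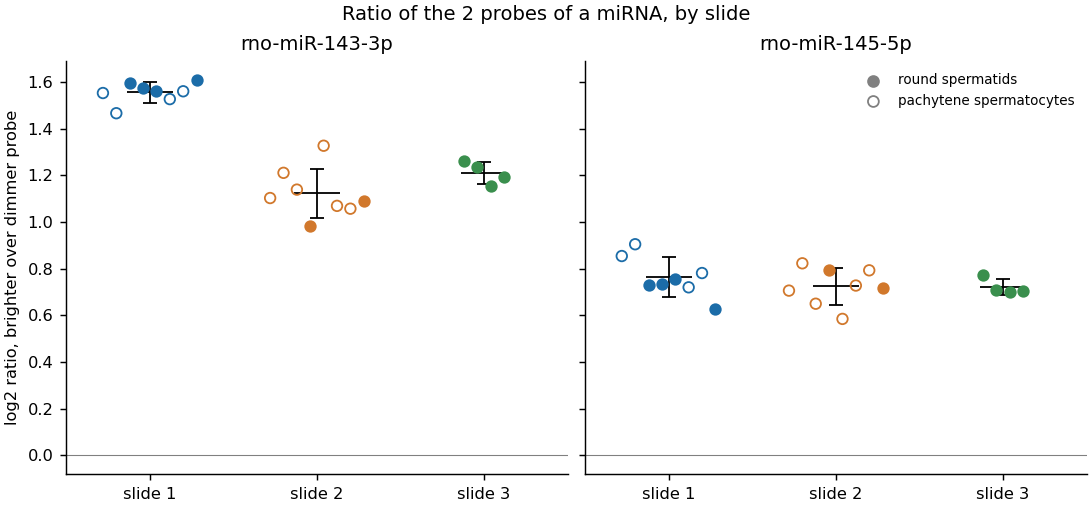
Log2 ratio of the brighter to the dimmer probe of rno-miR-143-3p and of rno-miR-145-5p on each array by slide, filled for round spermatids and open for pachytene spermatocytes, with a bar for the mean ± SD. The arrays of slide 1 lie between 1.47 and 1.61 for miR-143-3p, above all arrays of slides 2 and 3.

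The arms of miR-143 had a Pearson r of 0.943 over the 10 spermatid arrays (permutation p = 0.00032; adjusted p = 0.0112) and a rho of 0.888 (permutation p = 0.00129; adjusted p = 0.0247). The call was lost with quantile normalization (r 0.58, where miR-143-3p with miR-145-5p had 0.908) and with normexp (r 0.024). Without the 2 farthest arrays r was 0.893, and with the slide means removed 0.956. MiR-143-5p and miR-145-5p had an r of 0.799 (permutation p = 0.00638; adjusted p = 0.0737) and a rho of 0.675 (permutation p = 0.0383; adjusted p = 0.220). Without the 2 farthest arrays that r was 0.614, and with the slide means removed it was 0.859 (adjusted p = 0.0266, permutation, too low as above). Without saline spermatid rat 16 it was 0.947 and passed (adjusted p = 0.0404, permutation). The p-values were adjusted over 612 relations, those of the 3 members with each other and with the tested miRNAs that varied over these arrays, of which 7.03% passed. That share is of the members' own relations, and none was taken for other miRNAs. Without slide 3 the r of the arms of miR-143 was 0.922. The 6 arrays left have 720 orderings, so a p cannot go below 0.00139 and few of 603 relations could pass after adjustment, and 0 did.

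By the likeness over the 10 spermatid arrays, the miRNAs nearest to miR-143-3p were miR-133b-3p, its own 5p arm, miR-27b-3p, miR-23b-3p and miR-24-3p. These 5 passed and no negative relation did, out of 205 miRNAs. With normexp 0 relations of miR-143-3p passed in either direction. With the slide means removed 16 positive and 20 negative relations did, at p-values that are too low as above. MiR-133b-3p, a miRNA known from striated muscle, had an r of 0.964 (adjusted p = 0.00962) and a rho of 0.842 (adjusted p = 0.0517). MiR-27b-3p had an r of 0.905 (adjusted p = 0.0112) and a rho of 0.915 (adjusted p = 0.0169). MiR-23b-3p had an r of 0.871 (adjusted p = 0.0210) and a rho of 0.770 (adjusted p = 0.120), and miR-24-3p an r of 0.849 (adjusted p = 0.0295) and a rho of 0.818 (adjusted p = 0.0738), all by permutation. Without the 2 farthest arrays the r of these miRNAs was 0.902, 0.797, 0.688 and 0.676. In pachytene spermatocytes, which the ranking did not use, the r with miR-143-3p was 0.956 for miR-23b-3p, 0.901 for miR-27b-3p and 0.873 for miR-24-3p, the highest, 2nd and 4th of 190. MiR-133b-3p lay at the floor on 9 of the 10 pachytene arrays, so its r there was not read. The relation of miR-24-3p did not pass in 8 of the 10 fits that left out an array, and that of miR-23b-3p in 4. Of 8 other alternatives, leaving out slide 3 among them, the call was lost in 2 for miR-133b-3p (r 0.080 with normexp), 4 for miR-27b-3p, 2 for miR-23b-3p and 3 for miR-24-3p.

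The sequences of these 4 miRNAs are shown because 3 of them come from a cluster of their own, with the seed in capitals.
rno-miR-133b-3p: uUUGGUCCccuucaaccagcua
rno-miR-27b-3p: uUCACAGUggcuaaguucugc
rno-miR-23b-3p: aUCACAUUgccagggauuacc
rno-miR-24-3p: uGGCUCAGuucagcaggaacag
In GRCr8 the hairpins Mir23b at chr17:1819386-1819482, Mir27b at chr17:1819147-1819243 and Mir24-1 at chr17:1818669-1818736 lie together on the minus strand, while miR-24-3p is also made from another locus. Mir133b lies at chr9:30594582-30594665 on the plus strand. The a forms miR-23a-3p and miR-27a-3p each differ by 1 base from the b forms, so their probes may share signal. Their r with miR-143-3p was 0.786 and 0.668, and neither passed. All 4 miRNAs were also higher in round spermatids, by 1.59 ± 0.15 and 1.51 ± 0.15 for miR-133b-3p, 1.30 ± 0.13 and 1.35 ± 0.13 for miR-27b-3p, 1.42 ± 0.16 and 1.45 ± 0.16 for miR-23b-3p and 1.40 ± 0.17 and 1.43 ± 0.17 for miR-24-3p, saline before cyclophosphamide, and each passed. The difference of miR-133b-3p depends on the floor. Over all tested miRNAs 26% and 30.2% were called higher. The a forms were higher by like amounts, miR-23a-3p by 1.46 and 1.46 and miR-27a-3p by 1.22 and 1.43.

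The miRNAs nearest to miR-145-5p over the spermatid arrays were others. MiR-125a-5p had an r of 0.893 (adjusted p = 0.0168) and a rho of 0.952 (adjusted p = 0.0122), miR-352 an r of 0.882 (adjusted p = 0.0319) and a rho of 0.855 (adjusted p = 0.0447), and miR-181a-5p an r of 0.875 (adjusted p = 0.0193) and a rho of 0.758 (adjusted p = 0.135), all by permutation. MiR-143-5p and miR-143-3p came next. Without the 2 farthest arrays the r of these 3 miRNAs was 0.878, 0.831 and 0.679. Their calls were lost in 3, 3 and 4 of the 10 fits that left out an array, and in 3 of 8, 4 of 7 and 4 of 8 other alternatives. In pachytene spermatocytes the r of miR-125a-5p with miR-145-5p was -0.065, that of miR-352 0.368 and that of miR-181a-5p 0.082, whereas miR-143-3p was the nearest of the 190 miRNAs there. With the slide means removed, miR-143-3p was also the nearest over the spermatid arrays.

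MiR-145-5p also had 33 negative relations that passed, against 0 for miR-143-3p, and both counts depended on the setting. Such counts were not made for miRNAs other than the members. With the slide means removed, where p-values are too low, the counts were 34 and 20. With the mean of all probes they were 29 and 7, with the dimmer probe 20 and 5, with quantile normalization 7 and 2 and with normexp 20 and 0. The lowest were miR-17-5p at r = -0.954, miR-146b-5p at -0.947 and miR-883-5p at -0.945 (adjusted p = 0.00962 for each, permutation), with rho of -0.891, -0.915 and -0.976. MiR-17-5p belongs to the miR-17-92 cluster of proliferating cells. Without the 2 farthest arrays their r was -0.965, -0.870 and -0.950. In pachytene spermatocytes these miRNAs had an r of 0.303, 0.254 and -0.586 with miR-145-5p. The r of the level of miR-145-5p with the scale factor of the array was -0.585, against -0.161 for miR-143-3p and -0.153 for miR-143-5p, and the part of the scaling in these relations was not tested. With no scaling 0 relations of miR-145-5p passed in either direction, and the r of the same 3 miRNAs was -0.20, -0.17 and -0.16. The count of 36 relations of miR-145-5p fell to 15 without saline spermatid rat 16, to 19 without cyclophosphamide spermatid rat 15 and to 22 without cyclophosphamide spermatid rat 26. The lowest relations of miR-143-3p, with miR-743a-5p at -0.819, miR-743b-5p at -0.801 and miR-340-5p at -0.785, did not pass.

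Markers of the labelled germ cells were detected on all arrays apart from some listed members. MiR-449c-5p was detected on 2, miR-465-5p on 11 and miR-881-3p on 19 of the 20 arrays. The miRNAs of the miR-34 and miR-449 families, which mark meiotic and haploid germ cells, were tested for 5 of 6 listed members, and all 5 were detected on 20 arrays. Of these 1 passed as higher in spermatids of saline and 2 of cyclophosphamide rats, with 0 lower and a median difference of 0.17 and 0.15. Over all tested miRNAs 26% and 30.2% were called higher. MiR-34c-3p (-0.65 and -0.14) and miR-449a-5p (-0.26 and -0.014) did not pass. The summed scaled signal of the 5 ran from 15564 to 24230 on pachytene and from 15718 to 35546 on spermatid arrays. In spermatids their r with miR-143-3p was above 0 for 0 of 5 (median -0.54) and with miR-145-5p for 1 of 5 (median -0.87), where the median over all tested miRNAs was -0.12 and -0.003. MiRNAs of an X-linked germ cell cluster were tested for 12 of 12 listed members, 5 of which passed as lower in spermatids of saline and 6 of cyclophosphamide rats, with 0 higher, against 21.9% and 23.3% called lower over all tested miRNAs. Their median r was -0.44 with miR-143-3p and -0.40 with miR-145-5p.

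Markers of other cells that such fractions can hold moved with the cluster in part. Of 8 listed mesenchymal and peritubular miRNAs 7 were tested. In spermatids of each treatment 4 passed as higher, miR-199a-3p by 1.83 ± 0.27 and 1.84 ± 0.27, miR-199a-5p by 1.64 ± 0.29 and 1.78 ± 0.29, miR-10b-5p by 1.55 ± 0.16 and 1.53 ± 0.16, and miR-214-3p by 0.86 ± 0.21 and 0.80 ± 0.21, saline before cyclophosphamide. MiR-199a-5p lay at the floor on 3 of the 10 pachytene arrays, so its difference depends in part on the floor. In each treatment 1 passed as lower, miR-100-5p by -1.05 ± 0.13 and -1.14 ± 0.13. MiR-99a-5p (-0.18 and -0.24) and miR-125b-5p (-0.11 and -0.085) also lay lower in spermatids and did not pass. Over all tested miRNAs 26% and 30.2% were called higher and 21.9% and 23.3% lower. The median difference of the list was 0.86 and 0.80, against 0.022 and 0.067 over all tested miRNAs. The summed signal of the 7 ran from 969.7 to 1298 in saline and 985.4 to 1183 in cyclophosphamide pachytene spermatocytes, and from 925.8 to 1578 and 872.1 to 1324 in round spermatids, so the sums overlapped. In spermatids all 7 had an r above 0 with miR-143-3p (median 0.53) and none passed, and in pachytene spermatocytes 3 of 7 did (median -0.33).

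Of 7 listed muscle miRNAs only miR-133b-3p was tested. Its scaled signal ran from 6.84 to 14.8 in saline and 5.14 to 11.7 in cyclophosphamide pachytene spermatocytes, and on the spermatid arrays from 29.9 to 44.8 and 25.4 to 51.1. The other muscle miRNAs were not detected on every array of any group. MiR-133a-5p and miR-208a-3p were detected on 0 of 20 arrays, and miR-1-3p, miR-133a-3p and miR-206-3p on 2 each. MiR-499-5p was detected on 15 arrays and lay above the floor on 5 spermatid and 0 pachytene arrays. Of 7 listed blood cell miRNAs 4 were tested. MiR-223-3p of myeloid cells was higher in spermatids by 2.15 ± 0.16 and 1.96 ± 0.16, with 2 of the 10 pachytene arrays at the floor. MiR-146a-5p passed as higher with all 10 pachytene arrays at the floor, which sets the size of its difference. MiR-142-3p passed in cyclophosphamide rats at 0.76 ± 0.22 (adjusted p = 0.00772, limma) and not in saline rats at 0.53 ± 0.22 (adjusted p = 0.0583, limma), a difference between treatments that did not pass. MiR-150-5p did not pass. The red cell miRNAs miR-451-5p and miR-144-3p were detected on 1 and 0 arrays. The sum of the 4 tested blood miRNAs ran from 90.4 to 114.8 and 67.3 to 114.0 on pachytene arrays and from 171.5 to 258.8 and 165.5 to 226.8 on spermatid arrays. Their r with miR-143-3p over the spermatid arrays was above 0 for 2 of 4 (median 0.029).

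Endothelial miR-126a-3p went the other way, at -0.73 ± 0.31 in saline rats (adjusted p = 0.0603, limma) and -0.83 ± 0.31 in cyclophosphamide rats, where it passed as lower in spermatids (adjusted p = 0.0321, limma). Of the 4 Sertoli and gonadal miRNAs 3 were tested, of which miR-202-3p was lower in spermatids by -1.76 ± 0.18 and -1.54 ± 0.18 and miR-132-3p passed as higher with all 10 pachytene arrays at the floor. Of the 3 spermatogonial miRNAs 3 passed as lower in saline and 2 in cyclophosphamide rats. Over all tested miRNAs 21.9% and 23.3% were called lower. MiR-221-3p and miR-222-3p lay at the floor on 4 and 8 of the 10 spermatid arrays, and miR-21-5p differed by -0.20 and -0.092. No member of any of these lists passed in the cyclophosphamide comparisons. The part of other cell types in the higher level of the cluster in spermatid fractions was not tested. In fractions measured in bulk, fewer cells of a type and less RNA per cell cannot be told apart.

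**Figure D5:**
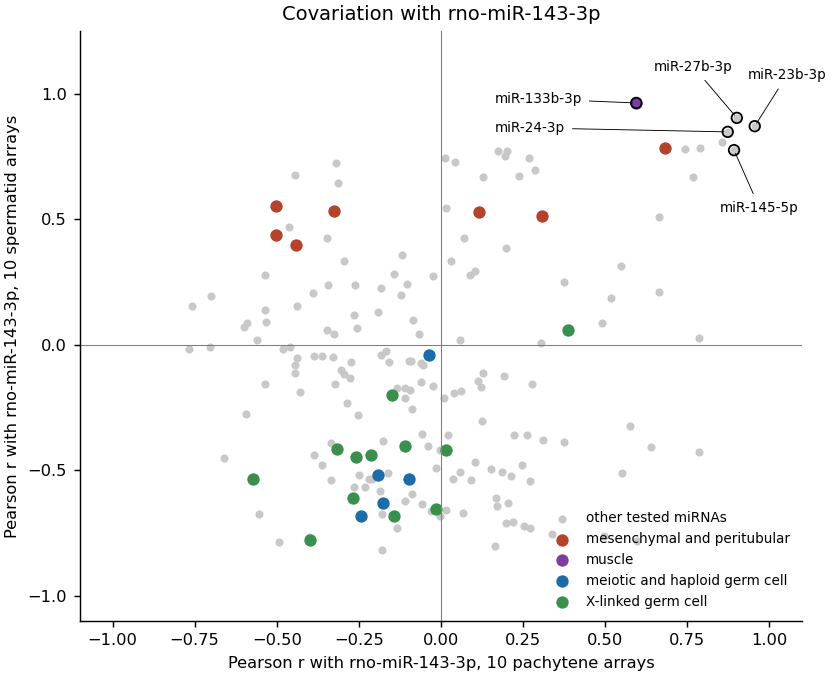
Pearson r of each tested miRNA with rno-miR-143-3p over the 10 spermatid arrays (vertical) against that over the 10 pachytene arrays (horizontal), with 4 marker lists coloured and the nearest miRNAs circled. MiR-23b-3p, miR-27b-3p, miR-24-3p and miR-145-5p lie near the top right, miR-133b-3p has 9 of 10 pachytene arrays at the floor, and the meiotic and haploid germ cell list lies at or below -0.04 on the vertical axis.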

How the data were processed

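MiRNAs were measured in 20 rat germ cell samples on single-colour Agilent arrays from 100 ng of total RNA. The deposited scanner files hold spot intensities on a linear scale, from which the authors had subtracted background in Feature Extraction 11.5.1.1 (per the file headers and processing notes of the submitters). A file has 14255 spots: 13540 for 677 miRNAs and 715 controls. Well above background were 18.9% to 31.4% of the spots of an array. The file of cyclophosphamide spermatid rat 14 is rounded to 3 digits. The deposited value table was not used, since its names lack arms.

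From these, outlier spots (379 to 635 per array) and controls were left out, arrays were scaled (factors 0.507 to 2.06), spots averaged, a floor of 12.2 set and log2 taken. The group comparisons used limma 3.58.1 (R 4.3.3) with 1 model of 4 group means (16 residual degrees of freedom), with Benjamini-Hochberg adjustment at 0.05. Correlations used 100000 two-sided permutations in Python 3.11.15. The code was tested on simulated data. The miRNAs named by likeness are the 5 highest and 3 lowest r. The members and lists were chosen with earlier results of these data known. Slide, replicate number, scaling, background correction (normexp on median signals, offset 50), floor, filter, probe choice and leaving out each array were the alternatives. The scan date block set slide 3 against slides 1 and 2.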

Additional observations from a re-analysis of the deposited data

Results flagged for a closer look

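The probe ratio of miR-143-3p in saline spermatids stood apart on 1 array: rat 15, on slide 1, had a log2 ratio of the brighter to the dimmer probe of 1.61, while the other 4 arrays, on slides 2 and 3, lay between 1.09 and 1.24. The same array had the lowest log2 probe ratio of miR-145-5p, at 0.629 against 0.699 to 0.715 on the other 4. In both cases the gap to the nearest array exceeded 0.71 of the range of the 5 arrays. Levels, arm and probe ratios were checked in 24 groups, where chance picks out about 1 in 20, or 1.2. Rat 15 was the only saline spermatid array on slide 1, where the probe ratio of miR-143-3p was between 1.47 and 1.61 on all 8 arrays. For miR-145-5p the other arrays of slide 1 lay between 0.720 and 0.905.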

How the results depend on the processing

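The spermatid minus pachytene differences of miR-143-3p and miR-145-5p kept their direction under every alternative run and stayed past the threshold in all but 1, miR-145-5p in saline rats within slide 1 (1.44). Leaving out each array gave 1.68 to 1.95 and 1.83 to 2.13 for miR-143-3p and 1.67 to 2.10 and 1.60 to 1.96 for miR-145-5p, saline before cyclophosphamide. For miR-143-5p the saline call was lost with normexp (0.86), no scaling (0.42), quantile normalization (0.44), the scan date as a block (0.49), within slide 1 (0.026) and without slide 3 (0.26), and the cyclophosphamide call with normexp (0.17), no scaling (0.25), quantile normalization (0.39) and within slide 1 (0.53). The number of miRNAs called between cell types was 30 and 39 with normexp and 56 and 71 within slide 1, 73 in cyclophosphamide rats with no scaling, and 94 to 112 and 100 to 119 with an array left out.

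No drug difference passed under any alternative. Signs turned in pachytene spermatocytes within slide 1 (miR-143-3p 0.25, miR-145-5p 0.45) and with normexp (miR-145-5p 0.13). In spermatids they turned within slide 1 (0.36, 0.50 and 0.58 for miR-143-3p, miR-143-5p and miR-145-5p), for miR-143-3p within slide 2 (0.015) and without slide 3 (0.19), and for miR-143-5p with all spots in the percentile (0.034), array weights (0.093), slide as a block (0.0020) and without slide 3 (0.34). The difference between cell types turned for miR-145-5p with array weights (0.36), within slide 1 (0.12) and slide 2 (0.14) and without slide 3 (0.067). With an array left out the drug difference ran from -0.44 to -0.13 and -0.37 to -0.014 in pachytene spermatocytes (miR-143-3p, miR-145-5p), from -0.23 to 0.012, -0.13 to 0.11 and -0.51 to -0.076 in spermatids (miR-143-3p, miR-143-5p, miR-145-5p), and between cell types from 0.024 to 0.33 and -0.34 to 0.097. The arm difference turned with normexp (0.23) and ran from -0.15 to -0.048 with an array left out. The slide 3 difference turned for miR-143-3p with the dimmer probe (0.091), mean of all probes (0.011) and no scaling (0.19), for miR-143-5p with normexp (0.11), no scaling (0.28) and quantile normalization (0.17), and for miR-145-5p with no scaling (0.085). It ran from -0.26 to 0.29, -0.23 to 0.39 and -0.67 to 0.15 with an array left out, and its count of calls was 1 with normexp, 2 with no scaling and 8 to 22 with an array left out.

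The r of miR-143-3p with miR-143-5p no longer passed with normexp (0.024), quantile normalization (0.58) and without slide 3 (0.922), and was 0.926 to 0.976 with an array left out. That of miR-143-3p with miR-145-5p passed with the dimmer probe (0.919), mean of all probes (0.894), quantile normalization (0.908) and slide means removed (0.950), and was 0.680 to 0.884 with an array left out. That of miR-143-5p with miR-145-5p passed with slide means removed (0.859) and was 0.730 to 0.947 with an array left out. The r of miR-143-3p turned with no scaling for miR-340-5p (0.52), miR-743a-5p (0.52) and miR-743b-5p (0.54), and that of miR-145-5p with miR-146b-5p turned with normexp (0.44). Of the 612 relations 43 passed, against 104 with slide means removed, 178 with normexp, 21 with no scaling, 15 with quantile normalization, 0 without slide 3 and 22 to 45 with an array left out. Without slide 3 the count is bounded by the 720 orderings of 6 arrays. With slide means removed the p-values are too low, since the permutations made no allowance for those means. The cause of the other shifts was not tested.

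Equal rat numbers were not taken as pairs: deviations of same-numbered arrays correlated between -0.29 and 0.16 across cell types in saline rats, at 0.12 for number 15 in cyclophosphamide rats, and at 0.61, 0.0021 and 0.34 across treatments in spermatids. Number 16 of the cyclophosphamide rats, with pachytene arrays from different years, was not matched across cell types. With the number as a fixed replicate block, over the shared numbers, the saline cell type differences were 1.87 and 2.15 with 65 calls, and the drug difference of miR-143-5p in spermatids was 0.16. As a random replicate block it changed no call. The dimmer probe, and leaving slide 3 out of the group comparisons, were chosen after seeing the data, and the deposited value table was not run as an alternative.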
